A study of Mus musculus with 8 samples.

Results

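Regulatory T cells are CD4+ T cells that restrain other lymphocytes. Their lineage depends on the transcription factor FOXP3, and they are known for high CD25 (the alpha chain of the interleukin 2 receptor), for the inhibitory receptor CTLA-4 and for the Ikaros-family factors Helios and Eos. In the spleen most of them show little of CD45RB, a form of the leukocyte phosphatase CD45 found at high density on naive cells, and a minority lack CD25 on the surface. A list of 10 such genes was followed here out of 22180 genes measured: Foxp3, Ikzf2, Ikzf4, Ctla4, Gpr83, Il2ra, Lrrc32, Nrp1, Ebi3 and Klrg1. The list was chosen with earlier results of these data known. The genes were taken by name, each through its brightest transcript cluster (the set of array probes summarised into 1 value) that the platform annotation assigns to a single gene. All 10 were measured, and all 10 passed the filter on dim genes that left 13508 genes for testing.

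CD4+CD25- T cells from spleens of C57BL/6 animals, 6 to 8 weeks old, were sorted by CD45RB and stimulated with plate-bound antibodies to CD3 and CD28. The groups were CCR2-/- CD45RBlow, wild-type CD45RBlow, CCR2-/- CD45RBhigh and wild-type CD45RBhigh cells, with 2 arrays each. CCR2-/- mice lack the receptor for the chemokine CCL2. All groups share the strain, the sort on CD4 and against CD25, and the stimulation, which lasted 48 h in the sample protocols and 2 h in the series design. No unstimulated cells were measured, and no label says how many mice were used, whether animals were pooled or whether the 2 replicates are of different animals. The p-values therefore reflect the scatter among these arrays.

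Levels are log2 values, so a difference of 1 is a doubling, and array medians lay between 4.92 and 5.05. Replicates of a group correlated across clusters at 0.984 to 0.994, and arrays of different groups at 0.979 to 0.995. Cd4, which defines the sorted lineage, lay between 11.54 and 11.74 on all 8 arrays, and the 8 measured CD4 T cell markers averaged 11.38 to 11.46 on the CD45RBlow arrays and 11.29 to 11.41 on the CD45RBhigh arrays. Ccr2 was dim, at 4.62 to 5.15 on CCR2-/- arrays and 4.26 to 4.61 on wild-type arrays. The deleted part of Ccr2 is not given in the sources used here, so these values do not check the genotype labels. The replicate numbers differed in sex-linked genes: Xist, expressed in females, lay at 11.74 to 12.07 on the replicate 2 arrays and 4.45 to 5.02 on the replicate 1 arrays. The Y-linked Kdm5d lay at 7.58 to 7.78 on the replicate 2 arrays and 8.83 to 9.13 on the replicate 1 arrays. Each group holds 1 array of each number, so the 2 arrays of a group did not hold the same RNA. These sex-linked differences go with the replicate number in every group, so effects of sex and of replicate number cannot be told apart.

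The comparison of CD45RBlow with CD45RBhigh cells asked how the sorted populations differ, here for the regulatory T cell genes. Foxp3, Ikzf2, Gpr83, Ctla4 and Ikzf4 had more transcript in CD45RBlow cells of both genotypes, by 8.30, 5.61, 2.35, 2.18 and 1.60 times on average. Ebi3 was the single member with lower values on every CD45RBlow array. Averaged over the genotypes, 5 of the 10 members passed limma's moderated test (Benjamini-Hochberg adjusted p under 0.05 over all 13508 genes) as higher and 0 as lower, against 1.1% and 1.93% of all genes tested (3.03% in either direction). Without any 1 of 5 arrays the count was 2, Foxp3 and Ikzf2: these arrays were CCR2-/- CD45RBlow replicate 1, CCR2-/- CD45RBhigh replicate 2, and wild-type CD45RBlow replicates 1 and 2 and CD45RBhigh replicate 2. With the replicate number as a block (a term for the number shared by the groups) 6 members passed, the 5 and Ebi3, against 5.61% of all genes. All 4 CD45RBlow arrays lay above all 4 CD45RBhigh arrays for 6 members, against 6.13% of genes tested, and below them for 1 member, against 8.13%. Klrg1 is 1 of these 6 and passed the filter on dim genes only through its CD45RBlow arrays, so it adds no support to that count; the other 5 are those that passed the test. The median difference was 0.90 over the 10 members and -0.01 over all genes tested. Klrg1, with a difference of 0.71, helps set the median of the members. The members were chosen with earlier results of these data known, so these counts and this median are a description. In bulk samples, fewer cells of a type and less RNA per cell cannot be told apart.

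**Figure D1:**
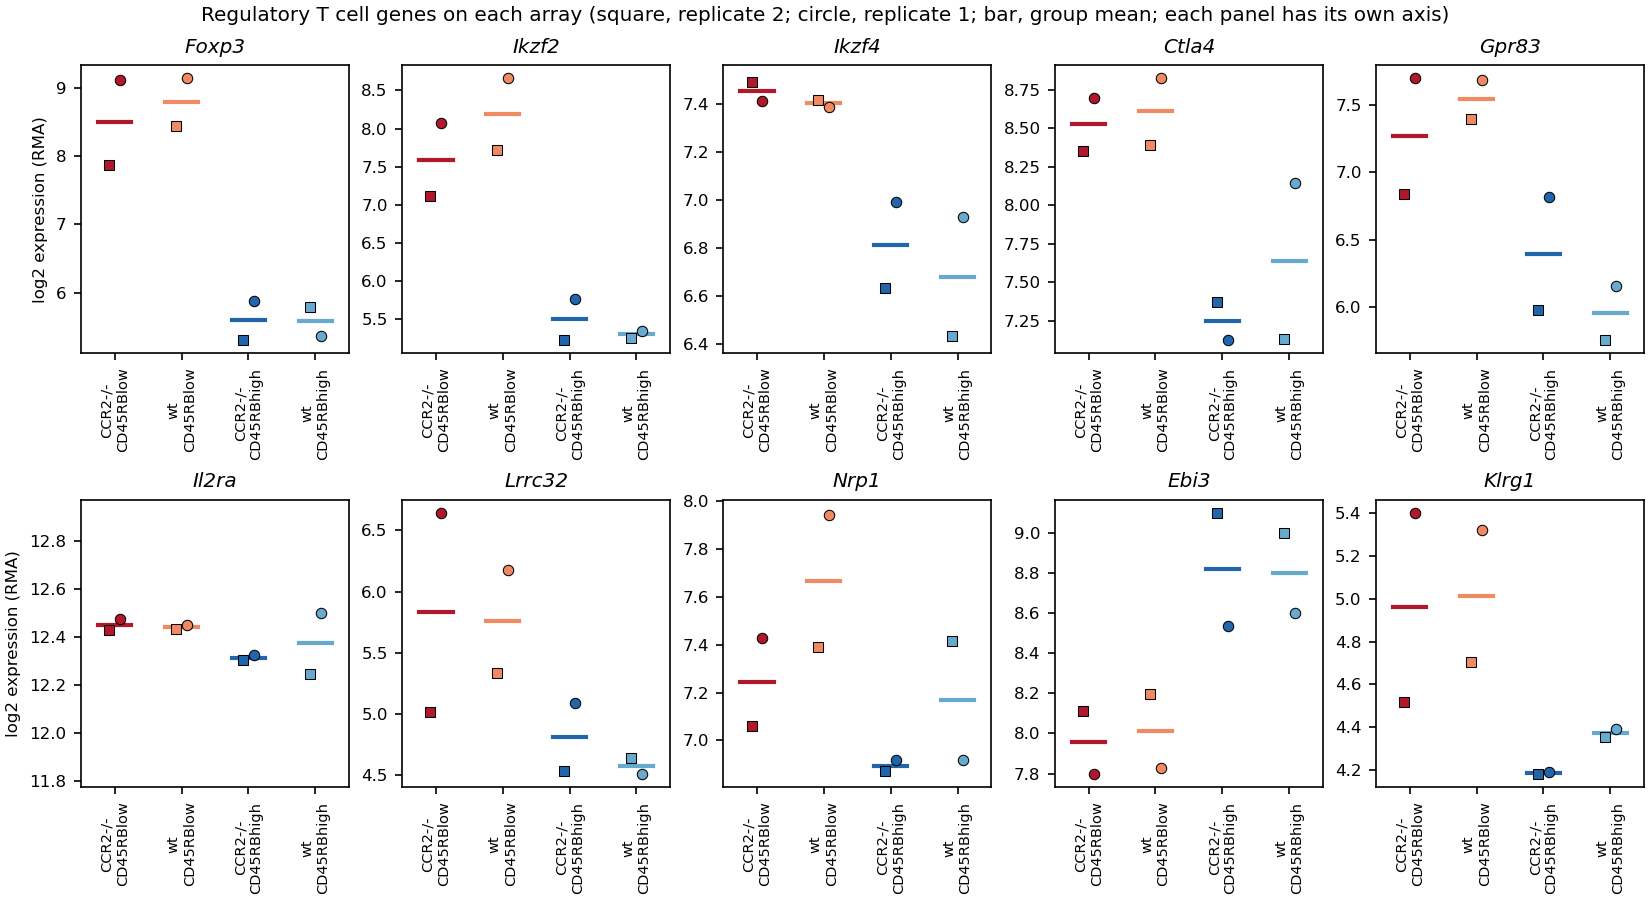
Log2 expression (vertical axis, a separate range in each panel) of the 10 genes on the 8 arrays, by group along the horizontal axis, with squares for replicate 2, circles for replicate 1 and a bar for the mean of the 2. Foxp3 lies between 7.87 and 9.14 on the CD45RBlow arrays and between 5.31 and 5.88 on the CD45RBhigh arrays, whereas Il2ra lies between 12.25 and 12.50 on all arrays.

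Foxp3, the lineage-defining transcription factor, is on chromosome X. In this and the following lists, the 2 values of a group belong to replicates 2 and 1. Foxp3 had log2 levels of 7.87 and 9.11 in CCR2-/- CD45RBlow cells and 8.44 and 9.14 in wild-type CD45RBlow cells, against 5.31 and 5.88 in CCR2-/- CD45RBhigh cells and 5.79 and 5.37 in wild-type CD45RBhigh cells. The 2 subsets were separated by a gap wider than the range within either of them. On the CD45RBlow arrays these values stood at the 77.8th to 87.2nd percentile of all clusters of the array, and on the CD45RBhigh arrays at the 53.9th to 60.8th. The averaged difference of 3.05 (SE 0.30, 95% confidence interval 2.35 to 3.76, limma adjusted p = 0.00627) was the 4th largest in size among all 13508 genes. It stayed past the threshold without any single array, with values of 2.74 to 3.36 and adjusted p up to 0.0376. A cluster annotated to Foxp3 together with its neighbours Ccdc22 and Ppp1r3f was not used for the gene. That cluster had levels of 6.43 to 6.62 on CD45RBlow arrays and 6.39 to 6.82 on CD45RBhigh arrays.

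The 250 bases before the annotated starts of Foxp3, Ctla4 and Gpr83, which rose, and of Ebi3, with values in the opposite direction, are shown because these are the members of that kind with a promoter in RefSeq (build GRCm38.p6, all on the plus strand). Promoters were found for 6 of the 10 members. Capitals mark matches on either strand to 3 short motifs: a forkhead motif (GTAAACA), an NFAT motif (GGAAAA) and a STAT5 motif (TTCNNNGAA). Of 32851 windows of this length at annotated mouse starts, 3.17% held the forkhead motif, 20.4% the NFAT motif and 7.02% the STAT5 motif.
Foxp3, upstream start, chrX:7579426-7579675: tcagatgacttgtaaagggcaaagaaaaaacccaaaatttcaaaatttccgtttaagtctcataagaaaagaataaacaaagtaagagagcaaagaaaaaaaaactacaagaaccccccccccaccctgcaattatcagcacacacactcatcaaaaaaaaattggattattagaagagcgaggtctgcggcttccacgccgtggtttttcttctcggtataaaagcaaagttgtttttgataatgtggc
Foxp3, downstream start, chrX:7580233-7580482: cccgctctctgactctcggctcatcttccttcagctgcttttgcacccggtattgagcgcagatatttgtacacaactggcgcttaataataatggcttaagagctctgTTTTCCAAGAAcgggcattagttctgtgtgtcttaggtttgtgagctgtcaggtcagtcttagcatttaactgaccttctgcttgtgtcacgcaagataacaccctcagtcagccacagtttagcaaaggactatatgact
Ctla4, chr1:60908775-60909024: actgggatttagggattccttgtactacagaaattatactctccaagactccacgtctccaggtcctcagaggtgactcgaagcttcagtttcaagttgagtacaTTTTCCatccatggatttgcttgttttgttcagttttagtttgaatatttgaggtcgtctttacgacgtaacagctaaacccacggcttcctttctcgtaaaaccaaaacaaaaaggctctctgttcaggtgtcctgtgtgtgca
Gpr83, chr9:14859960-14860209: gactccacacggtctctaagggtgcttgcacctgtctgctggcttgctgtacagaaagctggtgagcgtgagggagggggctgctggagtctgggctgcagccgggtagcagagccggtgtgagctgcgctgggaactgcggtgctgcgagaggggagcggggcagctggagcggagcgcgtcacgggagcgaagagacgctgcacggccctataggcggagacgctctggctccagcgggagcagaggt
Ebi3, chr17:55952373-55952622: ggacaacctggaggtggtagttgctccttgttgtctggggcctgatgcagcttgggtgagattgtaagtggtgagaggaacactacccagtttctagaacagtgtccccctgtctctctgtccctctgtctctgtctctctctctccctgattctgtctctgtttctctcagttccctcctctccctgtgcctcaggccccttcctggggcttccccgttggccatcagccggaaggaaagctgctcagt
The window at the downstream Foxp3 start held 1 NFAT match, beginning 141 bases before the start, and 1 STAT5 match, beginning 139 bases before it. These 2 matches overlap and appear as 1 run of capitals. Ctla4 held 1 NFAT match, 145 bases before its start. The upstream Foxp3 start, Gpr83 and Ebi3 held none of the 3 motifs in these windows, nor did the windows of Il2ra and Nrp1, which are not shown. A match is a description of the letters and not evidence of binding.

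Ikzf2, which encodes Helios, an Ikaros-family factor carried by most thymus-derived regulatory T cells, lies on chromosome 1. Its log2 levels were 7.11 and 8.07 in CCR2-/- CD45RBlow cells and 7.72 and 8.66 in wild-type CD45RBlow cells, against 5.23 and 5.77 in CCR2-/- CD45RBhigh cells and 5.26 and 5.35 in wild-type CD45RBhigh cells. As for Foxp3, the subsets did not overlap and the gap between them was wide. The averaged difference was 2.49 (SE 0.28, limma adjusted p = 0.00916), the 18th largest among the genes tested, and it remained past the threshold without any single array (2.25 to 2.73, adjusted p up to 0.0406).

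Ikzf4, which encodes Eos, a partner of FOXP3 in repressing its targets, differed by a smaller amount and with the tightest CD45RBlow values of the 3 transcription factors. It had levels of 7.49 and 7.41 in CCR2-/- CD45RBlow cells and 7.42 and 7.39 in wild-type CD45RBlow cells, against 6.63 and 6.99 in CCR2-/- CD45RBhigh cells and 6.43 and 6.93 in wild-type CD45RBhigh cells. The averaged difference of 0.68 (SE 0.13, limma adjusted p = 0.0436) lay close to the threshold. Without any 1 of 6 arrays its adjusted p was 0.0624 to 0.187, with differences of the same sign; it stayed under 0.05 without either replicate 1 array of CD45RBhigh cells, CCR2-/- or wild type.

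Ctla4 encodes the inhibitory receptor that competes with CD28 for CD80 and CD86. It had levels of 8.35 and 8.70 in CCR2-/- CD45RBlow cells and 8.40 and 8.83 in wild-type CD45RBlow cells, against 7.37 and 7.12 in CCR2-/- CD45RBhigh cells and 7.13 and 8.14 in wild-type CD45RBhigh cells. The high CD45RBhigh value, in wild-type replicate 1, came within reach of the lowest CD45RBlow value without overlapping it. The averaged difference was 1.13 (SE 0.23, limma adjusted p = 0.0488), and the adjusted p was 0.0595 to 0.214 without any 1 of the other 7 arrays and 0.0219 without that array. Gpr83, a G protein-coupled receptor with high transcript in mouse regulatory T cells, had levels of 6.84 and 7.70 in CCR2-/- CD45RBlow cells and 7.40 and 7.69 in wild-type CD45RBlow cells, against 5.98 and 6.81 in CCR2-/- CD45RBhigh cells and 5.76 and 6.15 in wild-type CD45RBhigh cells. Its subsets nearly met in CCR2-/- cells, where the lowest CD45RBlow value exceeded the highest CD45RBhigh value by little. The averaged Gpr83 difference was 1.23 (SE 0.25, limma adjusted p = 0.0487). It had an adjusted p of 0.0607 to 0.213 without any 1 of 6 arrays and stayed under 0.05 without CCR2-/- CD45RBhigh replicate 1 or CCR2-/- CD45RBlow replicate 2.

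Il2ra encodes CD25, the surface protein against which all cells had been sorted and which stimulation through CD3 and CD28 is known to induce. Its levels were 12.43 and 12.47 in CCR2-/- CD45RBlow cells and 12.44 and 12.45 in wild-type CD45RBlow cells, against 12.30 and 12.33 in CCR2-/- CD45RBhigh cells and 12.25 and 12.50 in wild-type CD45RBhigh cells. On every array it was past the 99th percentile, and the subsets overlapped. The averaged difference was 0.10 (95% confidence interval -0.09 to 0.30, limma adjusted p = 0.591), so the interval holds no change over 1.23 times in either direction. These levels after stimulation do not check the sort.

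Lrrc32 encodes GARP, which holds latent TGF-beta on the surface of activated regulatory T cells. It had levels of 5.02 and 6.65 in CCR2-/- CD45RBlow cells and 5.34 and 6.18 in wild-type CD45RBlow cells, against 4.54 and 5.09 in CCR2-/- CD45RBhigh cells and 4.64 and 4.51 in wild-type CD45RBhigh cells. CCR2-/- CD45RBlow replicate 2 lay just inside the CD45RBhigh range, and the other CD45RBlow values above it. The averaged difference of 1.10 was accompanied by a wide error (SE 0.36) and did not pass (limma adjusted p = 0.159). Without CCR2-/- CD45RBlow replicate 2 it was 1.51 and passed (adjusted p = 0.0470). Nrp1, the semaphorin and VEGF co-receptor neuropilin 1, had levels of 7.06 and 7.43 in CCR2-/- CD45RBlow cells and 7.39 and 7.94 in wild-type CD45RBlow cells, against 6.87 and 6.92 in CCR2-/- CD45RBhigh cells and 7.42 and 6.92 in wild-type CD45RBhigh cells. Its subsets overlapped, and the averaged difference of 0.42 (95% confidence interval 0.03 to 0.81) did not pass (limma adjusted p = 0.236).

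Klrg1 encodes a lectin-like inhibitory receptor for cadherins that marks differentiated effector, NK and some regulatory T cells. Its levels were low on all arrays, at 4.52 and 5.40 in CCR2-/- CD45RBlow cells and 4.70 and 5.32 in wild-type CD45RBlow cells, against 4.18 and 4.19 in CCR2-/- CD45RBhigh cells and 4.35 and 4.39 in wild-type CD45RBhigh cells. The subsets did not overlap, although the replicate 2 arrays of CD45RBlow cells stood little above the CD45RBhigh arrays. The CD45RBlow arrays stood at the 35.9th to 56.5th percentile of all clusters and the CD45RBhigh arrays at the 19.6th to 32.9th; every CD45RBhigh array was below the 40th percentile, the limit of the filter. Klrg1 was thus tested because of the group where it is high, and its averaged difference of 0.71, set against a signal below the filter, is given as a description. It did not pass (limma adjusted p = 0.131, and 0.0541 with the replicate block). The 7 measured NK cell markers of 8 listed averaged 5.31 to 5.38 on CD45RBlow arrays and 5.35 to 5.56 on CD45RBhigh arrays. Ncr1 lay at 4.12 to 4.47 and Klrb1c at 3.94 to 4.21 on all arrays, both below the filter. Klrk1 had the smallest p of the NK cell markers tested, with a difference of -0.39 (limma adjusted p = 0.281). Nkg7 was bright, at 10.48 to 10.76 on CD45RBlow and 9.70 to 10.79 on CD45RBhigh arrays, and overlapped between the subsets. Its difference within CCR2-/- cells was 0.30, opposite in sign to that of Klrk1. The 4 CD8 T cell markers averaged 5.25 to 5.35 on CD45RBlow arrays and 5.44 to 5.86 on CD45RBhigh arrays. None of the 4 passed: Cd8b1 differed by -0.92 (limma adjusted p = 0.0776), Eomes by -0.39 (0.0883), Cd8a by -0.18 (0.463) and Gzmk by 0.34 (0.0582). Eomes passed the filter on dim genes only through CD45RBhigh arrays (4.37 to 4.86, against 4.08 to 4.32 on CD45RBlow arrays). With the replicate block Cd8b1 passed as lower (adjusted p = 0.0467) and Gzmk as higher (0.0445). The part of such cells in the Klrg1 values was not tested.

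Ebi3, a subunit shared by the cytokines interleukin 35 and interleukin 27, went the other way. It had levels of 8.11 and 7.80 in CCR2-/- CD45RBlow cells and 8.20 and 7.83 in wild-type CD45RBlow cells, against 9.10 and 8.54 in CCR2-/- CD45RBhigh cells and 9.0004 and 8.60 in wild-type CD45RBhigh cells. All CD45RBlow values lay below all CD45RBhigh values, and the difference had nearly the same size in all 4 pairs of same genotype and replicate number (-0.99 and -0.74 in CCR2-/-, -0.80 and -0.77 in wild type, replicates 2 and 1). The averaged difference of -0.83 (SE 0.17) just missed the threshold (limma adjusted p = 0.0511), and with the replicate block it passed (adjusted p = 0.00341). A second, dimmer cluster of Ebi3 had levels of 4.79 to 5.16 on CD45RBlow arrays and 4.73 to 5.18 on CD45RBhigh arrays and did not separate them; with the mean of both clusters the difference was -0.42 (adjusted p = 0.169). Ebi3 is also made by B cells, dendritic cells and macrophages, and the mean levels of their marker lists were lower on the CD45RBlow arrays. The 6 measured B cell markers of 8 listed averaged 5.13 to 5.27 on CD45RBlow arrays and 5.48 to 6.27 on CD45RBhigh arrays. The 7 measured dendritic cell markers of 8 averaged 5.14 to 5.19 on CD45RBlow and 5.33 to 5.38 on CD45RBhigh arrays, and the 7 macrophage and monocyte markers 4.14 to 4.18 on CD45RBlow and 4.24 to 4.52 on CD45RBhigh arrays. Pax5 (3.95 to 4.44), Itgax (3.93 to 4.14) and Csf1r were below the filter on dim genes, as were Blk, Flt3, Xcr1 and Siglech. Other B cell and dendritic cell markers passed the filter. Ms4a1 and Cd79a did so only through CD45RBhigh arrays, so their values are given as a description. On CD45RBlow and CD45RBhigh arrays, Ms4a1 lay at 4.13 to 4.22 and 4.34 to 5.18, and Cd79a at 3.77 to 3.91 and 3.90 to 5.86. Cd79b lay at 4.94 to 5.27 and 5.22 to 6.85 there, and Zbtb46 at 4.53 to 4.72 and 4.75 to 5.44. Cd79a and Cd79b overlapped by little between the subsets, and Cd209a also overlapped, at 7.64 to 8.09 and 7.82 to 8.16. Of the markers tested, Ighm fell by 1.03 (limma adjusted p = 0.0128) and Naaa by 0.73 (adjusted p = 0.0286) in CD45RBlow cells, and no other marker of these 3 lists passed. Mpeg1, the single macrophage marker above the filter, differed by -1.44 (adjusted p = 0.241), and Csf1r overlapped between the subsets (4.23 to 4.39 on CD45RBlow and 4.19 to 4.46 on CD45RBhigh arrays). The part of these cells in the Ebi3 values was not tested.

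The same comparison within each genotype rests on 2 arrays against 2. Within CCR2-/- cells 0 of the 10 members passed limma's test (45 of 13508 genes did, 0.333%), and 3 passed with the replicate block (against 1.45% of genes). An unadjusted p under 0.05 was found for 7 members (12.3% of genes). Klrg1 is 1 of these 7, passed the filter only through its CD45RBlow arrays and adds no support to that count. Within wild type 0 passed (12 genes did, 0.0888%), 6 had an unadjusted p under 0.05 (9.22% of genes did), and 4 passed with the block (against 0.77%). The members passing with the block were Foxp3 (adjusted p = 0.0173 in CCR2-/- and 0.0181 in wild type), Ikzf2 (0.0144 and 0.00742) and Ebi3 (0.0223 and 0.0348) in both genotypes, and Gpr83 in wild type (0.0181). The differences themselves were 2.90 and 3.21 for Foxp3, 2.09 and 2.88 for Ikzf2, 1.28 and 0.98 for Ctla4, and 0.87 and 1.59 for Gpr83 in CCR2-/- and wild-type cells.

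**Figure D2:**
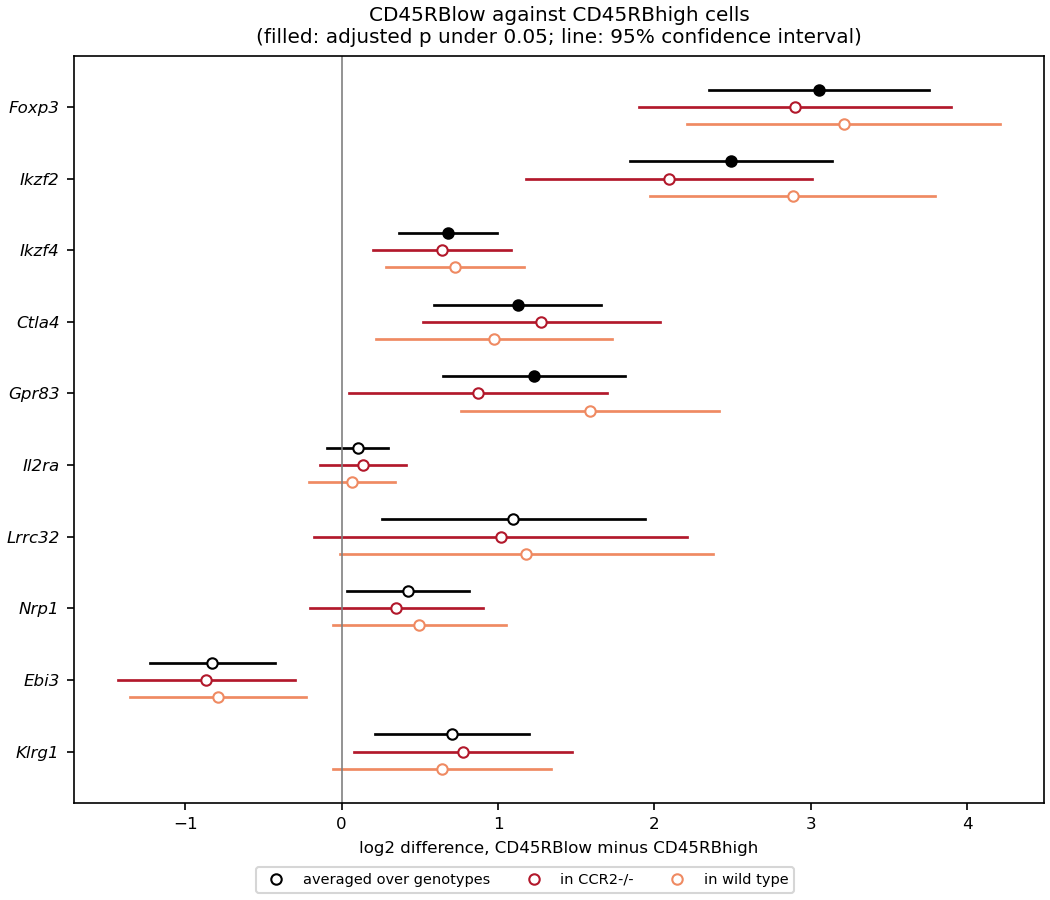
Log2 difference of CD45RBlow minus CD45RBhigh cells (horizontal axis) for each gene, averaged over the genotypes (black), in CCR2-/- (dark red) and in wild type (orange). Points are limma estimates, filled where the adjusted p is under 0.05, and lines are 95% confidence intervals. The filled points are the averaged values of Foxp3 (3.05), Ikzf2 (2.49), Gpr83 (1.23), Ctla4 (1.13) and Ikzf4 (0.68), and Ebi3 lies at -0.83.

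The genotype comparison asked whether the loss of CCR2 goes with other levels of these genes. Foxp3 averaged 8.49 ± 0.88 in CCR2-/- and 8.79 ± 0.49 in wild-type CD45RBlow cells, and 5.60 ± 0.41 in CCR2-/- and 5.58 ± 0.30 in wild-type CD45RBhigh cells (log2, mean ± SD, n = 2 each). In the order of the 4 means, from wild-type CD45RBlow down to wild-type CD45RBhigh, only the step between the subsets was wider than the spread. The genotype difference of Foxp3 was -0.30 in CD45RBlow (95% confidence interval -1.29 to 0.70) and 0.02 in CD45RBhigh cells (-0.98 to 1.02). Ikzf2 had the widest estimate among the members in CD45RBlow cells, -0.59 (-1.51 to 0.32, unadjusted p = 0.168 by limma), and was lower in CCR2-/- in both replicates (-0.60 and -0.59). Nrp1 differed by -0.42 in CD45RBlow cells and -0.27 in CD45RBhigh cells, with an averaged difference of -0.35 (-0.74 to 0.04, limma adjusted p = 0.940, and 0.714 with the replicate block). For 0 members did all CCR2-/- arrays lie above (1.17% of genes) or below (0.503%) all wild-type arrays.

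By limma, 0 of the 10 members and 0 of 13508 genes (0%) passed between genotypes in CD45RBlow cells, in CD45RBhigh cells or averaged over the subsets, with or without the replicate block. No member had an unadjusted p under 0.05 in these 3 comparisons, where 298 (2.21%), 354 (2.62%) and 521 (3.86%) of all genes did. The interaction, which asks whether the gap between subsets differs between genotypes, was also passed by 0 members and 0 genes (0%), with 0 members and 160 genes (1.18%) at an unadjusted p under 0.05. Its estimates were -0.31 for Foxp3 (95% confidence interval -1.72 to 1.10), -0.79 for Ikzf2 (-2.08 to 0.50), -0.72 for Gpr83 (-1.88 to 0.45) and 0.30 for Ctla4 (-0.77 to 1.37). Intervals of this width leave room for sizeable differences in either direction.

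**Figure D3:**
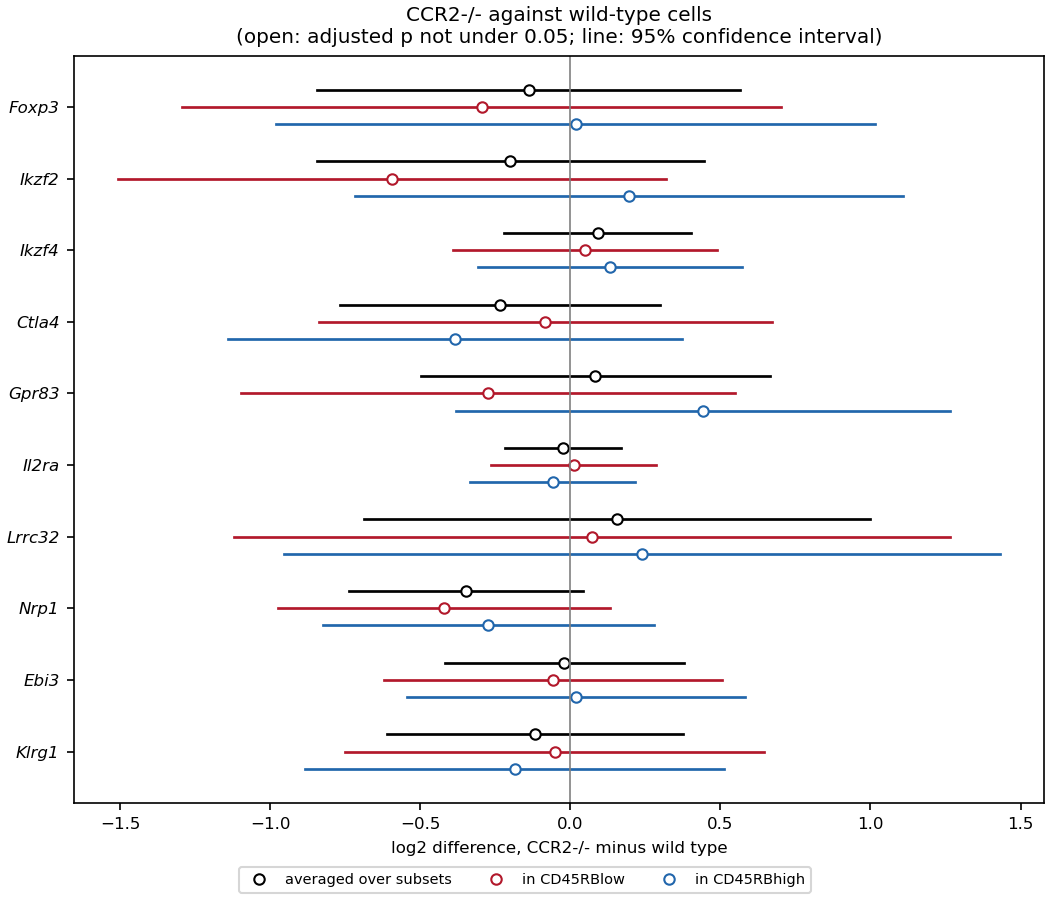
Log2 difference of CCR2-/- minus wild-type cells (horizontal axis) for each gene, averaged over the subsets (black), in CD45RBlow (red) and in CD45RBhigh cells (blue), with points for limma estimates and lines for 95% confidence intervals. Every interval includes 0, and the estimates run from -0.59 (Ikzf2 in CD45RBlow) to 0.44 (Gpr83 in CD45RBhigh).

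Several of these genes had lower values in replicate 2 than in replicate 1. On the CD45RBlow arrays 8 of 10 members were lower in both genotypes, against 21.9% of genes tested, with Ikzf4 and Ebi3 the exceptions. Il2ra is 1 of these 8 by small differences only, -0.04 in CCR2-/- and -0.01 in wild-type cells. Another is Klrg1, which passed the filter only through its CD45RBlow arrays and adds no support to that count. On the CD45RBhigh arrays 5 of 10 were lower in both genotypes, against 26.8% of genes. Klrg1 is 1 of these 5, with values below the filter there and differences of -0.01 in CCR2-/- and -0.04 in wild-type cells. Averaged over the 4 groups, the difference of replicate 2 from replicate 1 was -0.72 for Lrrc32, -0.63 for Ikzf2, -0.60 for Gpr83, -0.52 for Foxp3 and 0.41 for Ebi3. By limma 0 members passed (9 of 13508 genes did, 0.0666%), and 5 had an unadjusted p under 0.05 (Ikzf2, Gpr83, Lrrc32, Ebi3 and Klrg1) as did 2194 genes (16.2%). Here too Klrg1 adds no support to the count. For 0 members did all replicate 2 arrays lie above (4.71% of genes) or below (2.55%) all replicate 1 arrays.

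The gap between subsets also differed in size between the numbers. For Klrg1, with CD45RBhigh values below the filter, it was 0.34 in replicate 2 and 1.21 in replicate 1 of CCR2-/- cells, and 0.35 and 0.93 in wild type. For Lrrc32 it was 0.48 and 1.55 in CCR2-/- cells and 0.69 and 1.67 in wild type. Foxp3 had gaps of 2.56 and 3.23 in CCR2-/- cells and 2.65 and 3.77 in wild type, which remained the widest of the 10 members in every pair. Ikzf4 went the other way, with 0.86 and 0.42 in CCR2-/- cells and 0.99 and 0.46 in wild type. In a fit added after these values were seen, which compares the gap in replicate 2 with that in replicate 1, 0 members and 0 genes (0%) passed limma's adjusted threshold. At an unadjusted p under 0.05 there were 6 members and 1283 genes (9.5%), with differences of the gap of -1.02 for Lrrc32, -0.89 for Foxp3, -0.73 for Klrg1, -0.68 for Nrp1, -0.64 for Ikzf2 and 0.48 for Ikzf4. Of these, Klrg1 passed the filter only through its CD45RBlow arrays and adds no support to that count. The Xist and Kdm5d levels given above differ between the same numbers, and their part in these differences was not tested.

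**Figure D4:**
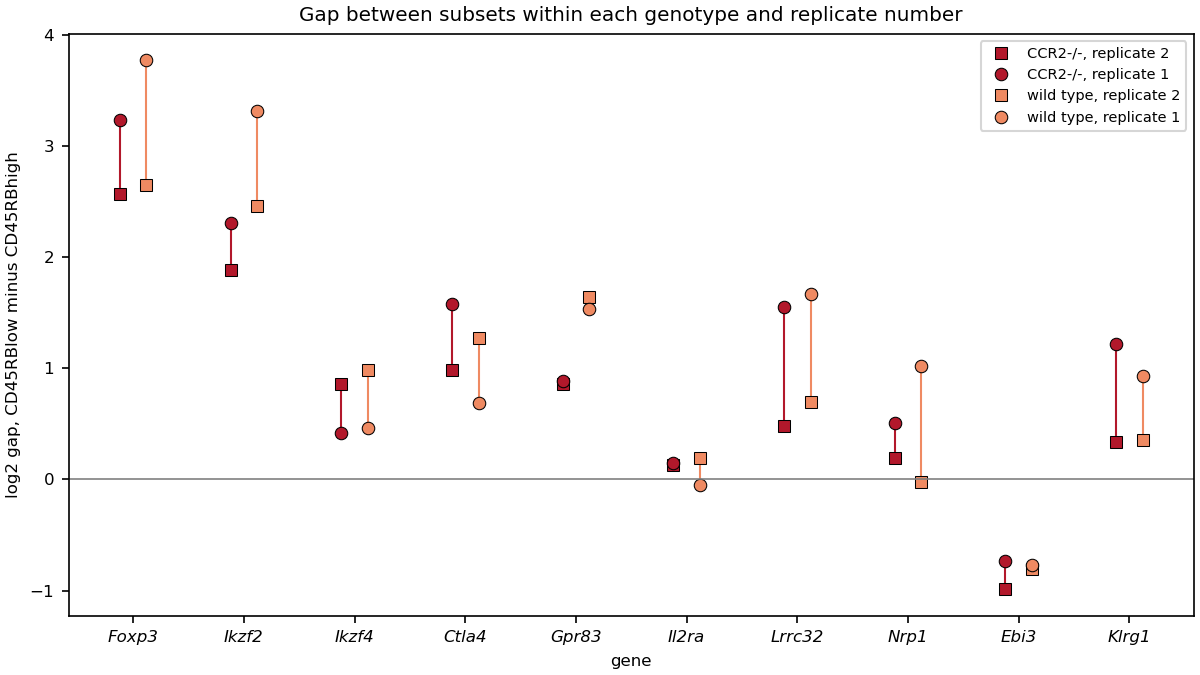
Log2 gap between CD45RBlow and CD45RBhigh arrays (vertical axis) for each gene within each genotype (dark red, CCR2-/-; orange, wild type) and replicate number (squares, replicate 2; circles, replicate 1). The gap is above 0 in all 4 pairs for 7 genes and below 0 in all 4 for Ebi3, and for Lrrc32 and Klrg1 it is smaller in replicate 2 in both genotypes.

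A gap above 0 in all 4 pairs was found for 7 of 10 members (15.1% of genes tested), and below 0 in all 4 for 1 (18.7%). Klrg1, which passed the filter only through its CD45RBlow arrays, is 1 of these 7 and adds no support to that count. Il2ra and Nrp1 were the members with mixed signs.

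Among the transcription factors that act with or upstream of FOXP3, 2 of 26 tested rose and 1 fell in CD45RBlow cells (limma, averaged over the genotypes), where 1.1% of all genes rose and 1.93% fell. With the replicate block 3 rose and 2 fell, where 5.61% of all genes passed in either direction. The block added Cbfb as higher (0.34, limma adjusted p = 0.0437) and Nr4a1 as lower (-0.98, adjusted p = 0.0198). Ikzf3, which encodes Aiolos, another Ikaros-family member, rose by 1.28 (adjusted p = 0.0147), and Gata3 by 0.73 (adjusted p = 0.0244). Nr4a3, an early gene of T cell receptor signalling, fell by 0.63 (adjusted p = 0.0332). Ikzf1, encoding the family member Ikaros, differed by 0.08 (adjusted p = 0.724), Runx1 by 0.32 (adjusted p = 0.273) and Foxo1 by 0.13 (adjusted p = 0.533). The median over these 26 genes was 0.04, against -0.01 over all genes.

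In the interleukin 2 receptor pathway 1 of 10 tested genes rose and 0 fell, against 1.1% and 1.93% of all genes. Under the replicate block 2 rose and 0 fell, against 5.61% of all genes in either direction. Socs2, a feedback inhibitor induced by STAT5, rose by 1.37 (limma adjusted p = 0.0391). Il2rb, the beta chain that pairs with CD25, differed by 0.07 (adjusted p = 0.799), and Stat5b by -0.05 (adjusted p = 0.822).

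Of 24 tested genes of the surface and effector programme of regulatory T cells, 6 rose and 0 fell, against 1.1% and 1.93% of all genes. Under the replicate block 9 rose and 0 fell, against 5.61% of all genes in either direction. The median difference of the 24 genes was 0.51. This list, like the others, was chosen with earlier results of these data known, so its counts and median are a description. Il10, an anti-inflammatory cytokine, rose by 3.58 (limma adjusted p = 0.00749). Itgb8, an integrin subunit that releases active TGF-beta, rose by 2.82, and Il1r2, a decoy receptor for interleukin 1, by 2.68. Ccr4, a chemokine receptor (1.004), Entpd1, which encodes the ectonucleotidase CD39 (0.87), and Tnfrsf1b, TNF receptor 2 (0.55), also rose. Among costimulatory receptors of the TNF receptor family in this list, 3 did not pass: Tnfrsf18, encoding GITR, differed by -0.16 (adjusted p = 0.291), Tnfrsf4, encoding OX40, by -0.04 (0.877) and Tnfrsf9 by 0.25 (0.597).

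Among ligands and partners of the members 1 of 17 tested genes rose, Itgb8, and 1 fell, against 1.1% and 1.93% of all genes. The block gave 2 and 2, against 5.61% of all genes in either direction. Sema4a, whose protein binds neuropilin 1, fell by 1.23 (limma adjusted p = 0.0180). Il12a, which encodes the partner of EBI3 in interleukin 35, differed by -0.42 (adjusted p = 0.288) and Il27, which encodes its partner in interleukin 27, by -0.14 (0.580). The ligands of CTLA-4 differed by -0.36 for Cd86 (0.0645) and -0.28 for Cd80 (0.390). Of 12 tested genes known to be lower in regulatory than in conventional CD4 T cells, 2 fell and 0 rose, against 1.93% and 1.1% of all genes. Dapl1 fell by 1.53 (limma adjusted p = 0.00651) and Id3, an inhibitor of E proteins, by 0.51 (adjusted p = 0.0245). With the block 3 fell and 0 rose, with Pde3b added (-0.54, adjusted p = 0.0270). Their median difference was 0.01, and Satb1, Il7r and Lef1 differed by 0.02, 0.12 and -0.10 (adjusted p = 0.963, 0.887 and 0.678).

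The genes whose profile was most like that of Foxp3 were found by the root mean square difference over the 8 arrays after each gene was centred on its own mean. Among 12316 tested genes with a usual symbol, Itgb8 was nearest (0.27 log2 units), followed by Il1r2 (0.31), Ikzf2 (0.35), Maf (0.38) and Il10 (0.44). For Ikzf2 the nearest were Il1r2 (0.21), Maf (0.27), Itgb8 (0.29), Emp1 (0.31) and Foxp3 (0.35). Being chosen for likeness on these 8 arrays, the genes share the subset gap and the replicate pattern of Foxp3 by that choice, and the members with small gaps were farther away, such as Gpr83 (0.96), Ctla4 (1.09), Ikzf4 (1.27) and Ebi3 (2.02).

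**Figure D5:**
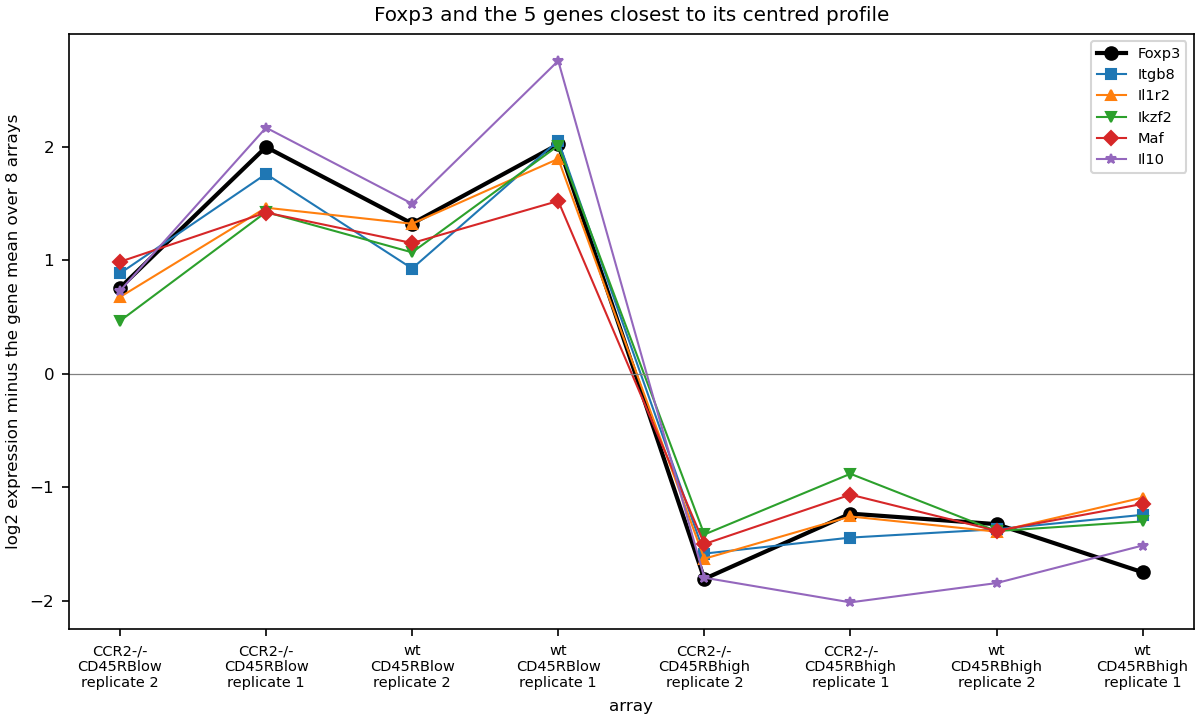
Log2 expression of Foxp3 (black) and the 5 genes nearest to it, each minus its mean over the 8 arrays (vertical axis), on the arrays along the horizontal axis; lines join the points of a gene. Each gene is above its mean on the 4 CD45RBlow arrays, lower in replicate 2 than in replicate 1 there, and below its mean on the 4 CD45RBhigh arrays.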

How the data were processed

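The deposited table gives a log2 level for each of 41034 transcript clusters on 8 single-colour arrays. The submitters' processing notes name RMA and Partek for these deposited log2 values; versions and options are not given in the sources used here. They were used as deposited. RMA brings arrays to a common distribution, so a shift shared by most genes would not show. Biotin-labelled cDNA came from 200 ng of total RNA, per the labels' protocols.

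The platform annotation gave 23521 clusters a single symbol, 1814 several and 15699 none here. The brightest single-symbol cluster by its mean stood for a gene (22180 genes), and a gene was tested where at least 2 arrays showed it at or over the 40th percentile of their clusters (13508). The fit used limma 3.58.1 (R 4.3.3) with 1 mean per group and all 8 arrays (4 residual and 3.36 prior degrees of freedom), with two-sided p-values adjusted by Benjamini-Hochberg over all genes tested. Subset effects are CD45RBlow minus CD45RBhigh and genotype effects CCR2-/- minus wild type. The replicate comparisons add the number as a term. On simulated arrays the fit was checked to recover known changes. Precision is limited by the number of arrays; there is no read depth.

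The replicate number stands in the titles of the replicate 2 samples, and the sample of each group without one was taken as replicate 1. Differences of replicate 2 from replicate 1 correlated across genes between groups at 0.11 to 0.53 in all 6 pairs of groups, over the limit of 0.1, so the numbers were taken to pair samples; no label says what they mark. Values with this block are given where it changes a call of a member or a list count the text gives. Members and lists were chosen with earlier results of these data known. All 10 members are named. Of the other lists, up to 6 passing genes with the largest differences are named, and some that did not pass were added after their values were seen.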

Additional observations from a re-analysis of the deposited data

How the results depend on the processing

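The count of members passing the averaged subset comparison, 5 as reported, was 6 with the replicate block, the stricter filter (60th percentile), arrays centred on their medians or limma's trend and robust options, 4 with array weights, 5 with the mean of all clusters of a gene, and 2 with no filter, where Ikzf4, Ctla4 and Gpr83 had adjusted p of 0.0552, 0.0679 and 0.0679. Leaving out 1 array gave 2 to 5. Foxp3 and Ikzf2 passed under every alternative. Ebi3 passed under the block, the stricter filter, median centring and the trend and robust options, and without CCR2-/- CD45RBhigh replicate 1. Within CCR2-/- the count of 0 became 3 with the block and 1 with the stricter filter, median centring or trend and robust options, and stayed 0 without any single array. Within wild type the count of 0 became 4 with the block, 3 with array weights, and 2 with median centring, with trend and robust options or in a fit of only the 4 arrays compared, and was 0 to 2 without single arrays, 2 being reached without either CCR2-/- CD45RBhigh array. The genotype, interaction and replicate comparisons had 0 members passing under every alternative run. The replicate difference of Nrp1, -0.12, lay between -0.320 and 0.0286 without single arrays, the positive value being without wild-type CD45RBlow replicate 1 or 2. Signal near background and the 2 arrays per group limit what can be told apart: Klrg1 lay below the filter in CD45RBhigh cells.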
